A study of Mus musculus with 12 samples.

Results

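Tnf and 9 genes that act on NF-kB signalling, most of them as inhibitors, were followed in colonic epithelial cells of mice with and without Nfkb2. The 10 genes are Tnf, Nfkbia, Nfkbib, Nfkbie, Nfkbiz, Tnfaip3, Tnip1, Birc3, Bcl3 and Cyld, out of 46517 gene identifiers in each deposited table, and each symbol matched 1 identifier. They were chosen by symbol, with earlier results of these data in view: an earlier test of whether the response to DSS depended on genotype had ranked Tnf, Nfkbia and Nfkbiz near the top of the NF-kB targets. Their fold changes are therefore given as a description, without p-values. Tests are given for other genes of the pathway, whose lists were also drawn up with earlier results of these data known.

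The cells came from C57BL/6 mice aged 7 to 9 weeks, either wild-type (WT) or with the Nfkb2-/- genotype (knockout, KO), and either untreated or given DSS (dextran sulfate sodium, a sugar polymer toxic to the colonic lining) for 48 h. Each of the 4 groups held 3 samples, described as biological replicates. The labels name no promoter or Cre that would limit the deletion to the epithelium. Cells were released from the colon with EDTA, and about 90% of them were CD45.2-EpCAM+ by flow cytometry as the labels report, so other cells were present.

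NF-kB transcription factors are held in the cytoplasm by inhibitor of kB (IkB) proteins until a kinase complex, IKK, marks those inhibitors for destruction. Tnf is a cytokine that starts this chain at its receptors and is itself an NF-kB target. Many of the genes that NF-kB switches on encode brakes on the same chain, among them new IkB proteins and enzymes that remove or edit the ubiquitin chains on which the signal is assembled. In the colon the pathway is known both for protecting the epithelium and for driving inflammation.

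Total counts were 5595909 to 8117740 per sample. A level is given as CPM, the gene's counts relative to its library after scaling by TMM, and a level compared between genes as CPM per kilobase of exon. Nfkb2 was 30.8 to 46.1 CPM in the 6 WT samples and 11.7 to 19.6 CPM in the 6 KO samples, a difference of -1.31 in log2 CPM (exact two-sided permutation test, p = 0.00216, the smallest that 924 rearrangements allow). Reads counted for the gene thus remained in every KO library. On the other strand, AC114539.1 overlaps 11.6% of its exon bases and Psd 6.52%. The library method keeps no strand, so part of these reads may not be its own. Epithelial markers were abundant in all libraries, with 10 of 10 detected and a summed level of 28100 to 43600 CPM. The labels number all WT libraries before all KO libraries, so an effect of genotype and one of library order cannot be told apart.

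All 10 genes passed the filter on low counts. A gene passed the threshold where its edgeR quasi-likelihood test, adjusted over 12522 genes by the method of Benjamini and Hochberg, gave a value under 0.05. Under DSS in WT, 5 of the 10 were past the threshold and higher (Tnf, Nfkbia, Nfkbiz, Tnfaip3 and Birc3) and 0 lower, where 2.80% of all genes tested were called higher and 3.50% lower. Under DSS in KO, 2 were higher (Bcl3 and Nfkbiz) and 0 lower, where 1.88% of all genes were called higher and 2.04% lower. In this comparison the deviations of same-numbered samples were weakly correlated (r = 0.204, 0.106 and 0.127). In a fit blocked by that number 1 of the 10 remained past the threshold, and Nfkbiz kept its log2 fold change of 0.44 without passing. When 1 KO library at a time was left out, 0 or 1 of the 10 passed.

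In untreated cells, 3 genes were higher in KO than in WT (Tnf, Nfkbia and Tnip1) and 0 lower, where 1.72% of all genes were called higher and 1.76% lower. Under DSS, 1 gene was higher in KO (Bcl3) and 2 were lower (Tnf and Nfkbiz), where 1.77% of all genes were called higher and 1.34% lower. The interaction, which subtracts the change under DSS in WT from that in KO, was negative and past the threshold for 3 genes (Tnf, Nfkbia and Nfkbiz) and positive for 0, where 0.527% of all genes were called negative and 1.17% positive. Since results of these same contrasts were known when the genes were chosen, no support is read from these shares. The DSS comparison in WT and the untreated comparison of genotypes share the untreated WT samples.

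The median log2 fold change of the 10 genes was 0.79 under DSS in WT and 0.19 under DSS in KO, where the medians of all genes tested were 0.0063 and 0.015. Between genotypes the median of the 10 was 0.49 in untreated cells, where that of all genes was -0.0015. Under DSS it was 0.00093, where that of all genes was 0.0027. Untreated WT was the lowest group for 8 of the 10, and for 27.9% of all those tested. DSS-treated WT was the highest group for 5, DSS-treated KO for 3 and untreated KO for 2, and for 23.7%, 28.3% and 22% of all genes tested, so the last counts are near that background.

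**Figure D1:**
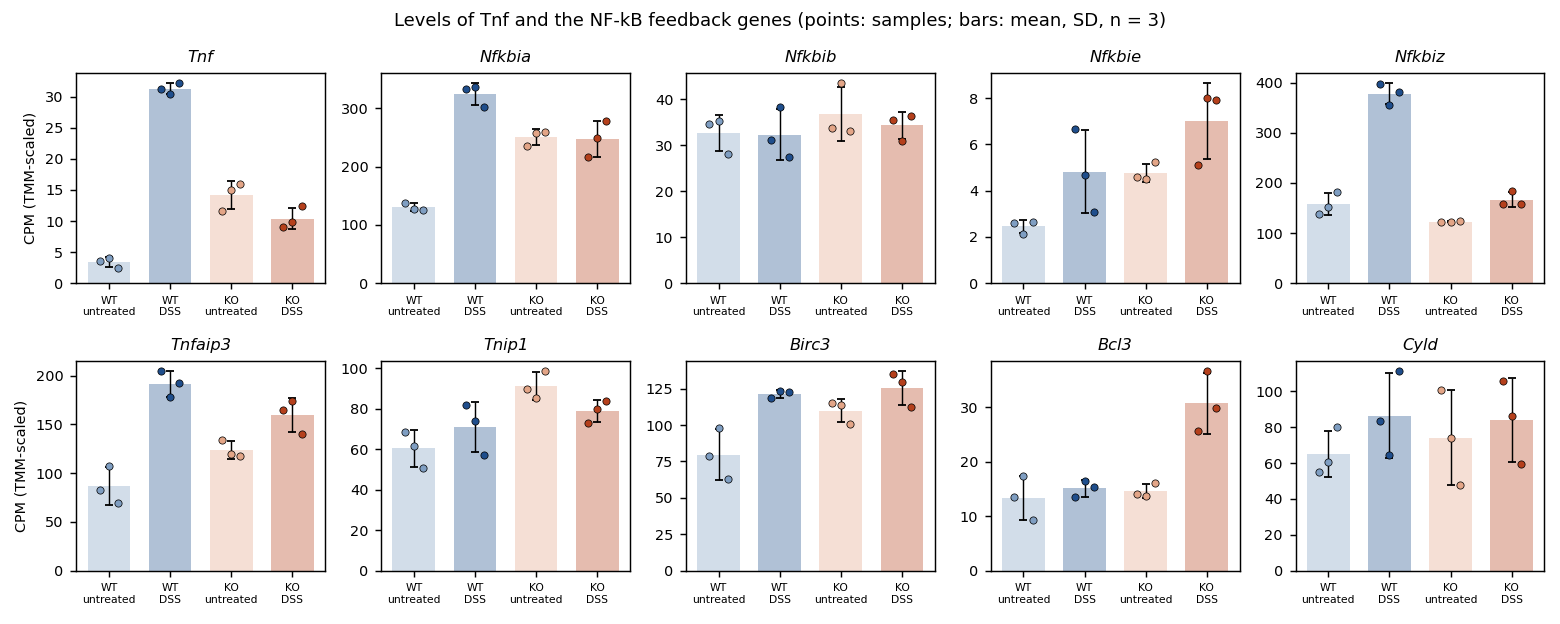
Level of each of the 10 genes (CPM, linear axes from 0) in the 4 groups, with 1 point per sample and bars for the mean and SD of 3 samples. Tnf sits between 2.47 and 4.10 CPM in untreated WT and between 30.4 and 32.1 CPM in DSS-treated WT, with both KO groups between; Bcl3 is highest in DSS-treated KO.

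The stretches just before the start sites are shown for Tnf and Nfkbia, whose levels were most alike, and for Nfkbie and Tnip1, whose levels followed other orders. RefSeq's promoter table (build GRCm38.p6) held an entry for 9 of the 10 genes, and Nfkbiz was not among them. In each stretch of 250 bases before the start site, matches to the NF-kB consensus, known as the kB site, were searched on both strands with overlaps allowed. A match was present in 5 of the 9 genes (Nfkbia, Nfkbie, Tnfaip3, Tnip1 and Cyld), and in 7.25% of 32851 promoters of that length. Capitals mark the matches, and each stretch is printed 5′ to 3′ along its gene.

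Nfkbia chr12:55492648-55492897, minus strand: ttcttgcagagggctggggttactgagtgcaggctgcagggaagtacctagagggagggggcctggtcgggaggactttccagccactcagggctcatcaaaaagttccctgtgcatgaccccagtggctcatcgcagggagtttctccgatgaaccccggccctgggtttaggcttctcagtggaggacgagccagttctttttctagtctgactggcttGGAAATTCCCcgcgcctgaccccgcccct
Tnip1 chr11:54962941-54963190, minus strand: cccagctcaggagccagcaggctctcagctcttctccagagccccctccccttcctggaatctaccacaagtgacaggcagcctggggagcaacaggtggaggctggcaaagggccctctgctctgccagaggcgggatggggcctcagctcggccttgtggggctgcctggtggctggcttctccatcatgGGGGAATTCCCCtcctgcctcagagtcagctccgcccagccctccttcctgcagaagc
Nfkbie chr17:45555450-45555699, plus strand: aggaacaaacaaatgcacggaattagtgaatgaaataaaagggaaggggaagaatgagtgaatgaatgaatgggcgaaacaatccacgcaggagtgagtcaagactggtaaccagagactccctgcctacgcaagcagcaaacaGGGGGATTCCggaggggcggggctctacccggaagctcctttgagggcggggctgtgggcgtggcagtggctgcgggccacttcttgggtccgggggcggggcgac
Tnf chr17:35202008-35202257, minus strand: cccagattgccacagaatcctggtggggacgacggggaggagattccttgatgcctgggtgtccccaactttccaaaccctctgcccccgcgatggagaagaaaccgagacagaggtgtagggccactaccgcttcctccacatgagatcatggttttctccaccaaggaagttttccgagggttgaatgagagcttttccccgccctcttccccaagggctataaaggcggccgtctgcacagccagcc

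In Nfkbia the match ran from base -29 to base -20 before the start site, and in Nfkbie from -106 to -97. Tnip1 held 4 overlapping matches that together ran from -58 to -47 and read the same on both strands. The first promoter entry of Tnfaip3 held matches at -125 to -116 (GGGACACCCC) and at -12 to -3 (GGAAATCCCC), and Cyld held 1 at -155 to -146 (GGAAAGTCCC). The Tnf stretch held none, as did those of Nfkbib, Birc3 and Bcl3. The search could not find sites further from the start site or sites that depart from the consensus. A stretch without a match thus does not show that the gene lacks kB sites. A match describes these letters, and binding was not measured.

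Tnf was 9.18-fold higher under DSS in WT and 4.16-fold higher in untreated KO than in untreated WT. It encodes the cytokine that signals through the receptors Tnfrsf1a and Tnfrsf1b, and lies on chromosome 17 from 35199381 to 35202007 on the minus strand (GRCm38, GENCODE M21; ENSMUSG00000024401.13). The 3 untreated WT samples had 3.64, 4.10 and 2.47 CPM, from 16 to 25 counts. In DSS-treated WT the samples had 31.3, 30.4 and 32.1 CPM, from 197 to 228 counts. Every DSS sample of WT lay above every untreated one, and the 3 DSS values had an SD of 0.861 CPM.

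The untreated KO samples had 11.6, 15.01 and 15.9 CPM of Tnf, and the KO samples under DSS had 9.02, 9.79 and 12.3 CPM. Those KO ranges overlapped, and both lay above untreated WT and below DSS-treated WT. The log2 fold change under DSS was 3.19 (SE 0.25) for WT and -0.45 (SE 0.23) for KO, the latter not past the threshold. KO exceeded WT by 2.05 (SE 0.25) in untreated cells and was below it by -1.59 (SE 0.23) under DSS, that is 3.01-fold lower. The interaction was -3.64 (SE 0.34). In each of the 17 alternative fits it stayed negative and past the threshold, between -3.79 and -3.46. Those fits reuse samples whose interaction was known when the gene was chosen, so they describe stability to processing only.

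Nfkbia encodes IkB-alpha, the inhibitor that binds NF-kB dimers in the cytoplasm and is rebuilt after each round of activation. It lies on chromosome 12 from 55489410 to 55492647 on the minus strand. Levels were 138, 128 and 125 CPM in untreated WT, and 334, 337 and 303 CPM in DSS-treated WT. Untreated KO samples had 235, 258 and 259 CPM, and KO samples under DSS had 216, 249 and 279 CPM. As for Tnf, the KO ranges overlapped each other and lay between the WT groups, apart from both.

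Under DSS Nfkbia was 2.49-fold higher in WT, a log2 change of 1.32 (SE 0.11). In KO the value was -0.01 (SE 0.11), so the DSS and untreated means of 248 and 251 CPM differed by less than their SDs of 31.2 and 13.6 CPM. Untreated KO exceeded untreated WT 1.92-fold, a log2 difference of 0.94 (SE 0.11). Under DSS the KO level was lower by -0.39 (SE 0.11), which was past the threshold with DESeq2 alone. The interaction was -1.33 (SE 0.15) and was past the threshold in 17 of 17 alternative fits, which reuse the same samples and are no further support.

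Nfkbib and Nfkbie encode IkB-beta and IkB-epsilon, cytoplasmic inhibitors of the same family. Nfkbib (chromosome 7 from 28758251 to 28767512, minus strand) was nearly level. Its group means ran from 32.3 ± 5.53 CPM (SD, n = 3) in DSS-treated WT to 36.8 ± 5.81 CPM in untreated KO, and all 4 ranges overlapped. None of its 5 contrasts passed, and the log2 fold changes ran from -0.10 to 0.17. Its counts are uncertain in part, because 14.5% of its exon bases overlap Ccer2 and 1.94% overlap Sirt2 on the other strand. The library method keeps no strand. Over the 12 samples Ccer2 had 0 counts, Sirt2 3643 and Nfkbib 2851.

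Nfkbie (chromosome 17 from 45555703 to 45563169, plus strand) had the lowest level per kilobase of the 10 genes, 0.808 to 2.30 CPM per kilobase over the 4 group means. Untreated WT samples had 2.62, 2.13 and 2.63 CPM, and those of DSS-treated WT had 6.68, 4.67 and 3.10 CPM. Untreated KO samples had 4.58, 4.52 and 5.23 CPM, and those of DSS-treated KO had 5.13, 8.01 and 7.90 CPM. Untreated WT lay below each other group without overlap, and the other groups overlapped their neighbours. With 13 to 57 counts per sample no contrast passed: the log2 fold change was 0.96 (SE 0.38) under DSS in WT and 0.95 (SE 0.38) between untreated genotypes.

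Nfkbiz and Bcl3 encode nuclear members of the IkB family, which bind NF-kB on DNA and can raise or lower the transcription of particular targets. Nfkbiz (chromosome 16 from 55811375 to 55838899, minus strand) had 139, 152 and 181 CPM in untreated WT and 397, 356 and 382 CPM in DSS-treated WT. Untreated KO samples had 123, 122 and 123 CPM, and KO samples under DSS had 158, 184 and 158 CPM. DSS-treated WT stood above all other samples, and DSS-treated KO overlapped untreated WT.

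Under DSS Nfkbiz was 2.40-fold higher in WT, a log2 change of 1.26 (SE 0.11), and 1.36-fold higher in KO, a value of 0.44 (SE 0.11). The KO value passed in 5 of 12 alternative fits, and did not with the replicate block or without any 1 of the 6 KO libraries. Untreated KO was lower than untreated WT by -0.36 (SE 0.11), which was not past the threshold although the ranges did not overlap. Under DSS it was 2.27-fold lower in KO, a log2 difference of -1.18 (SE 0.11), and the interaction was -0.82 (SE 0.16). Nfkbiz was the lowest in untreated KO, whereas Tnf and Nfkbia were lowest in untreated WT.

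Bcl3 (chromosome 7 from 19808462 to 19822770, minus strand) was the gene of the 10 with its highest level in DSS-treated KO and apart from every other group. Those 3 samples had 25.6, 36.8 and 29.9 CPM. The samples of untreated WT had 13.6, 17.4 and 9.27 CPM, those of DSS-treated WT 13.5, 16.5 and 15.3 CPM, and those of untreated KO 14, 13.7 and 16.04 CPM. The latter groups overlapped one another. Under DSS Bcl3 was 2.11-fold higher in KO, a log2 change of 1.08 (SE 0.23), against 0.18 (SE 0.24) in WT. KO exceeded WT 2.03-fold under DSS, a log2 difference of 1.02 (SE 0.23).

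Both Bcl3 values past the threshold passed in 7 of 12 alternative fits, and neither passed when a library of the groups compared was left out, except DSS-treated KO replicate 1. The fit without DSS-treated KO replicate 2, its highest sample, gave 0.92 for the DSS change in KO and 0.87 for the genotype difference. The interaction of 0.90 (SE 0.33) was not past the threshold, so the DSS change of Bcl3 was not shown to differ between genotypes. On the other strand, Gm16175 overlaps 6.51% of the exon bases of Bcl3. Over the 12 samples Gm16175 had 1 count and Bcl3 1526.

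Tnfaip3, Tnip1 and Cyld act on ubiquitin: Tnfaip3 encodes A20, a ubiquitin-editing enzyme, Tnip1 a ubiquitin-binding partner of A20, and Cyld a deubiquitinase. Tnfaip3 (chromosome 10 from 19000910 to 19015657, minus strand) had 82.9, 108 and 69.8 CPM in untreated WT and 205, 178 and 193 CPM in DSS-treated WT. Untreated KO samples had 134, 120 and 118 CPM, and KO samples under DSS had 165, 174 and 140 CPM. Its 4 groups did not overlap, in the rising order of untreated WT, untreated KO, DSS-treated KO and DSS-treated WT.

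Under DSS Tnfaip3 was 2.21-fold higher in WT, a log2 change of 1.14 (SE 0.15). The value was 0.36 (SE 0.14) in KO and 0.51 (SE 0.15) between untreated genotypes, neither past the threshold. Without untreated WT replicate 2 the untreated difference was 0.69 and passed. The genotype difference under DSS was -0.27 (SE 0.14), not past the threshold. The interaction of -0.78 (SE 0.21) did not pass. It passed in 3 of 17 alternative fits: with DESeq2 (-0.77), with no filter on low counts (-0.79) and without untreated WT replicate 2 (-0.96).

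Tnip1 (chromosome 11 from 54910785 to 54962917, minus strand) was highest in untreated KO, at 89.7, 85.6 and 99.0 CPM. Samples of untreated WT had 68.6, 61.9 and 50.7 CPM, those of DSS-treated WT 81.7, 73.9 and 57.2 CPM, and those of DSS-treated KO 73.2, 80.1 and 83.7 CPM. Untreated KO lay above all others without overlap, and the rest overlapped their neighbours. The untreated genotype difference was 0.60 (SE 0.15), 1.51-fold. It passed in 5 of 12 alternative fits and not with the replicate block, where it was 0.61, nor with only the 2 groups compared, nor without any single untreated sample except WT replicate 1. Under DSS the changes were 0.23 (SE 0.15) in WT and -0.21 (SE 0.15) in KO.

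Cyld (chromosome 8 from 88697028 to 88751945, plus strand) varied more within groups than between them. Group means (± SD, n = 3) were 65.1 ± 13.1 CPM in untreated WT, 86.6 ± 23.7 CPM in DSS-treated WT, 74.1 ± 26.5 CPM in untreated KO and 83.9 ± 23.3 CPM in DSS-treated KO. All 4 ranges overlapped, and none of its 5 contrasts passed.

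Birc3 encodes cIAP2, a ubiquitin ligase of the Tnf receptor complex that is itself an NF-kB target. It lies on chromosome 9 from 7848699 to 7873186 on the minus strand. Its samples had 78.4, 97.9 and 62.9 CPM in untreated WT, and 118, 124 and 123 CPM in DSS-treated WT. The untreated KO samples had 116, 114 and 101 CPM, and those of DSS-treated KO had 135, 129 and 112 CPM. Untreated WT lay below all other samples.

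The DSS change of Birc3 in WT was 0.61 (SE 0.15), 1.52-fold, and passed in 7 of 12 alternative fits. The call was lost with only the 2 groups compared, without untreated WT replicate 1 and without any 1 library of DSS-treated WT. In KO it was 0.19 (SE 0.14), and the untreated genotype difference was 0.46 (SE 0.15), neither past the threshold. Without untreated WT replicate 2 the latter was 0.63 and passed. Repeats shared with many other genes made up 7.56% of the 50-base words of Birc3, so some of its reads may not map to it alone. The effect of this on its counts was not measured.

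**Figure D2:**
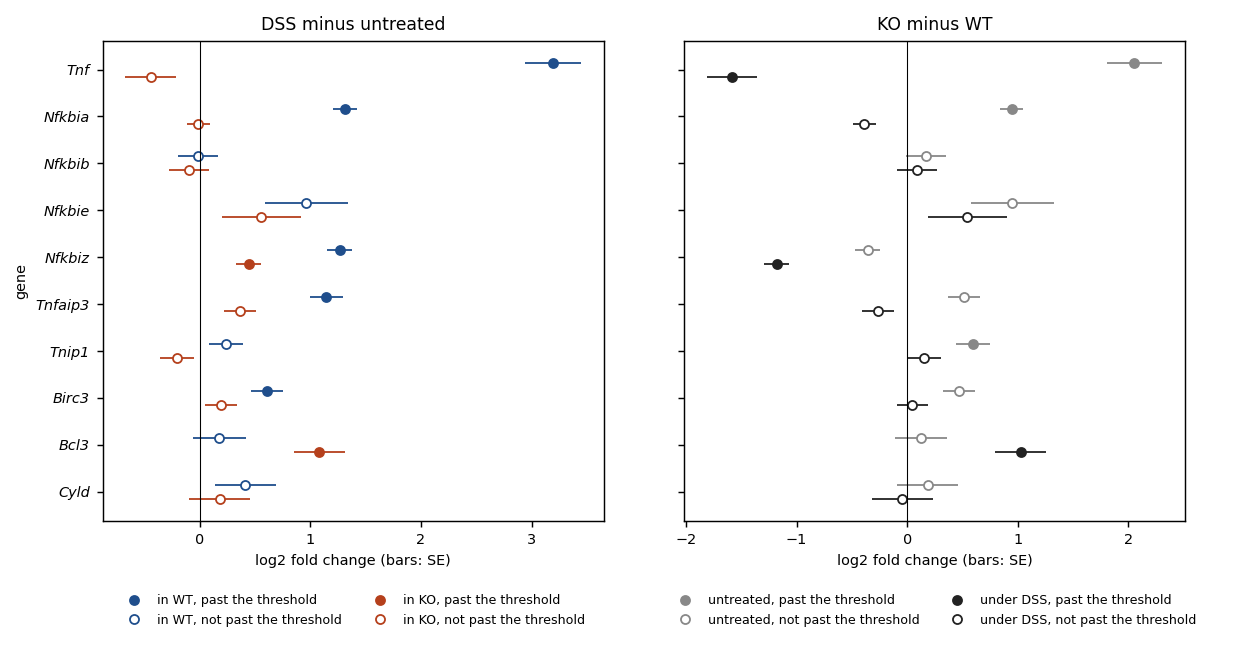
Log2 fold change of each gene with its SE, for DSS minus untreated in WT (blue) and KO (red), and for KO minus WT in untreated cells (grey) and under DSS (black); filled points passed the threshold. Tnf moves from 3.19 in WT to -0.45 in KO, and its genotype difference from 2.05 untreated to -1.59 under DSS.

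Compared per length, Nfkbia was the most abundant of the 10 RNAs in every group, with means of 81.0 CPM per kilobase in untreated WT and 202 CPM per kilobase in DSS-treated WT. Nfkbiz came next, at 31.4 and 75.4 CPM per kilobase in those groups. Tnf stood at 2.08 CPM per kilobase in untreated WT and at 19.1 CPM per kilobase in DSS-treated WT. In the untreated and DSS groups of KO, Tnf was 8.65 and 6.33 CPM per kilobase, while Nfkbia was 156 and 154 CPM per kilobase.

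Tnf and Nfkbia had the most alike levels of any pair of the 10 genes over the 12 samples, with Pearson's r = 0.962 in log2 CPM. Tnfaip3 and Birc3 followed with r = 0.914, and Tnf and Tnfaip3 had r = 0.853. Bcl3 had r = 0.139 with Tnf, Tnip1 had r = 0.439 with Tnf, and Nfkbiz had r = -0.335 with Tnip1. The samples share group structure and library scaling, so these values describe likeness and carry no test. Among 8860 genes averaging 3 or more in log2 CPM, those most like Tnf were Nfkbia (r = 0.962), Ccn1 (0.932), Cd14 (0.93), Jak3 (0.93) and Trim46 (0.921). Those most like Nfkbia were Tnf (0.962), Cd14 (0.957), Ece2 (0.952), Hoxb13 (0.95) and Cd177 (0.94).

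The rest of the pathway was read from 6 lists of 63 genes, of which 61 were tested (Lta and Il1a were not). Earlier results of these data were known when the lists were drawn up, and their p-values do not allow for that. Under DSS in WT 5 of the 61 rose and 1 fell (edgeR quasi-likelihood test, adjusted over all genes). Of all genes tested, 2.80% were called higher there and 3.50% lower. Under DSS in KO 6 rose and 1 fell, where 1.88% of all genes were called higher and 2.04% lower. In untreated cells 1 was higher in KO and 0 lower, where 1.72% and 1.76% of all genes were. Under DSS 1 was higher in KO and 1 was lower, where 1.77% and 1.34% of all genes were. The counts between genotypes are thus near the shares of all genes. The interaction passed for 0 of the 61 by edgeR, where 9 had an unadjusted p under 0.05 and DESeq2 called 1. Their median log2 fold change was 0.083 under DSS in WT and 0.27 in KO, where those of all genes tested were 0.0063 and 0.015.

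Among ligands and receptors, 11 of 13 genes were tested, and 2 rose under DSS in each genotype. Il1rn encodes the antagonist of the interleukin 1 receptor. It averaged 150 ± 28 CPM in untreated WT and rose to 240 ± 7.34 CPM (SD, n = 3) with DSS. This was a log2 change of 0.68 (SE 0.12, edgeR adjusted p = 0.00235). In KO it rose from 203 ± 5.41 CPM to 327 ± 15.5 CPM, a value of 0.69 (SE 0.12, edgeR adjusted p = 0.00419). The interaction of Il1rn was 0.01 (SE 0.17), so its changes in WT and KO were of nearly the same size, unlike those of Tnf.

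Tnfrsf1b, the inducible receptor for Tnf, rose in WT from 50.6, 52.2 and 37.4 CPM to 97.6, 87.2 and 109 CPM, a log2 change of 1.07 (SE 0.17, edgeR adjusted p = 0.00105). In KO its value was 0.49 (SE 0.17, edgeR adjusted p = 0.14), and its interaction of -0.58 had an edgeR adjusted p of 0.379. Tnfrsf1a, the receptor present on most cells, had 62.5 to 116 CPM over the 12 samples and passed in none of the 5 contrasts.

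Il1b, which encodes the cytokine interleukin 1 beta, rose in KO from 0.808, 3.05 and 1.90 CPM to 10.96, 6.23 and 18.01 CPM, a log2 change of 2.59 (edgeR adjusted p = 0.0327). It had 6 to 25 counts in untreated KO and 42 to 130 under DSS, and its call held in 5 of 11 alternative fits. It was lost with the replicate block, without any 1 untreated KO library and without DSS-treated KO replicate 1 or 3, and adjusted p values over the alternatives reached 0.151. In WT its value was 1.38 (edgeR adjusted p = 0.341).

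Ltb encodes lymphotoxin beta, a relative of Tnf that is known for the lymphotoxin receptor pathway, in which Nfkb2 acts. Untreated WT libraries had 1, 2 and 1 counts and untreated KO libraries had 26, 19 and 27. The ratio of counts per library total, 72 against 4 counts, was 15.8, with an exact 95% interval of 5.90 to 59.5 that covers counting error only, and the genotypes differed by an edgeR adjusted p of 0.005. Under DSS WT had 5 to 9 counts and KO 16 to 43, a log2 difference of 2.21 (edgeR adjusted p = 0.0406). That call under DSS held in 4 of 11 alternative fits, and adjusted p values ranged from 0.013 to 0.173. It was lost with the replicate block, with no filter on low counts, without any 1 DSS-treated WT library and without DSS-treated KO replicate 1 or 3. Ltb is a lymphocyte-associated gene, and the T lymphocyte markers given below differed in the same direction; their part in it was not tested.

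Adaptors passed once: of 14 genes tested, Myd88, the adaptor of Toll-like and interleukin 1 receptors, rose in DSS-treated KO by a log2 change of 0.61 (edgeR adjusted p = 0.0118). Of 6 genes for IKK and the linear ubiquitin complex, Rnf31, the catalytic subunit of that complex, rose in KO by 0.52 (edgeR adjusted p = 0.0148). The WT values were 0.27 for Myd88 and 0.26 for Rnf31, neither past the threshold. Myd88 passed in 9 of 12 alternative fits, not without untreated KO replicate 2 or 3 or DSS-treated KO replicate 2. Rnf31 passed in 8 of 12, not without untreated KO replicate 2 or 3 or DSS-treated KO replicate 1 or 2. None of the NF-kB subunit genes Rela, Relb, Rel and Nfkb1 was past the threshold anywhere.

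Other negative regulators were 17 genes tested, of which 2 rose and 1 fell in WT, and 1 rose and 1 fell in KO. Zc3h12a, which encodes the ribonuclease regnase-1, rose in WT from 15.01, 10.99 and 19.2 CPM to 37.5, 27.1 and 37.02 CPM, a log2 change of 1.17 (SE 0.22, edgeR adjusted p = 0.00443). Its KO value was 0.68 (edgeR adjusted p = 0.119). Tax1bp1, an adaptor of A20, rose by 0.73 in WT (edgeR adjusted p = 0.000142) and by 0.44 in KO (edgeR adjusted p = 0.0141), the latter not without untreated KO replicate 3 or DSS-treated KO replicate 2. Nfkbid, a further nuclear IkB gene, had values of 0.84 in WT and 0.77 in KO, neither past the threshold.

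Pdlim2, which encodes a ligase that promotes degradation of nuclear RelA, was the gene of the 61 that fell under DSS. WT levels went from 44.5, 40.5 and 23.6 CPM to 4.86, 8.0 and 6.20 CPM, a log2 change of -2.50 (SE 0.28, edgeR adjusted p = 5.08e-05). KO levels went from 24.5, 22.95 and 18.2 CPM to 9.55, 12.2 and 8.31 CPM, a value of -1.13 (SE 0.27, edgeR adjusted p = 0.0311). In KO the call held in 6 of 12 alternative fits and was lost whichever of the 6 KO libraries was left out. The interaction of Pdlim2 was 1.38 (edgeR adjusted p = 0.115).

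Of 9 genes for Tnf shedding and mRNA decay, Zfp36 passed. It encodes tristetraprolin, which binds AU-rich elements and speeds the decay of Tnf mRNA. Levels in WT rose from 157, 180 and 192 CPM to 376, 331 and 354 CPM, a log2 change of 1.00 (SE 0.10, edgeR adjusted p = 1.5e-05). In KO they rose from 167, 187 and 174 CPM to 264, 250 and 266 CPM, a value of 0.57 (SE 0.10, edgeR adjusted p = 0.00497). Under DSS Zfp36 was lower in KO than in WT by -0.44 (edgeR adjusted p = 0.0266), a call that held in 7 of 12 alternative fits and was lost without DSS-treated WT replicate 1 or 3 or without any KO library under DSS. In untreated cells, where Tnf differed 4.16-fold, Zfp36 was 176 ± 17.6 CPM in WT and 176 ± 10.1 CPM in KO. These are RNA levels, and the part of Zfp36 in the levels of Tnf was not tested.

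**Figure D3:**
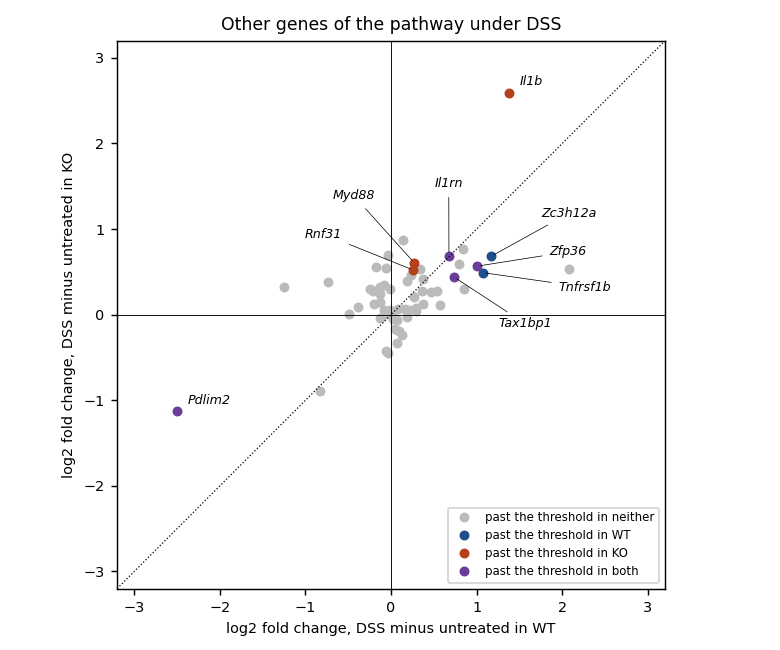
Log2 fold change under DSS in WT (horizontal) and KO (vertical) of the 61 other pathway genes tested, 1 point each; colour shows in which genotype the gene passed the threshold, and the dotted line marks equal change. Il1rn lies on the line at 0.68 and 0.69, Pdlim2 at -2.50 and -1.13.

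Markers of other cells differed between the groups and are given beside Tnf, since in bulk samples fewer cells of a type and less RNA per cell cannot be told apart. Ptprc, which encodes CD45 of leukocytes, was 6.95 to 11.8 CPM in untreated WT, 13.5 to 15.5 CPM in DSS-treated WT, 21.4 to 40 CPM in untreated KO and 28.9 to 47.2 CPM in DSS-treated KO. The order of Ptprc was not that of Tnf, which was highest in DSS-treated WT. Both were higher in DSS-treated WT and in untreated KO than in untreated WT, and the part of leukocytes in Tnf was not tested. T lymphocyte markers (8 of 8 detected in each group) summed to 8.03 to 18.9, 23.2 to 29.3, 34.3 to 46.6 and 38.5 to 63.6 CPM in the same order of groups.

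Macrophage and monocyte markers summed to 71.5 to 84.8 CPM in untreated WT (7 of 9 detected, with Adgre1 and Ly6c2 at 0), 197 to 213 CPM in DSS-treated WT, 129 to 140 CPM in untreated KO and 194 to 210 CPM in DSS-treated KO (9 of 9 in each). Most of this was Cd14, with 422 to 1411 counts per sample, and Cd14 was also among the genes most like Tnf and Nfkbia. Without Cd14 the sums were 5.83 to 6.89, 24.7 to 30.2, 18.8 to 20.1 and 55.5 to 76.2 CPM in that order, highest in DSS-treated KO. Under DSS this sum was thus higher in KO than in WT without overlap, while Tnf was 3.01-fold lower. Of its genes only Lyz2 passed the threshold in that comparison, and not all went the same way. From untreated WT to DSS-treated WT and to untreated KO, both were higher, and the part of these cells in those differences was not tested.

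Of the other lists, neutrophil markers summed to at most 5.13 CPM, stromal and endothelial markers to at most 6.72 CPM, and dendritic cell markers to at most 12.7 CPM. B and plasma cell markers summed to 3.09 to 10.1 CPM in untreated WT, 10.1 to 15.8 CPM in DSS-treated WT, 1.66 to 5.12 CPM in untreated KO and 4.3 to 5.96 CPM in DSS-treated KO, highest in the group highest in Tnf; their part was not tested. Mast cell markers, most of their sum being Kit, summed to 33.8 to 39.2 CPM in untreated WT and 33.9 to 44 CPM in DSS-treated WT. They summed to 46.9 to 59.8 CPM in untreated KO and 48.1 to 62.9 CPM in DSS-treated KO, and their part was not tested. Epithelial markers summed to 36000 to 43600 CPM in untreated WT and to 28100 to 31900 CPM in the other groups. The group lowest in Tnf and Nfkbia was thus highest in this sum, though not in each of its genes. Under DSS in WT 3 of 10 passed the threshold and were lower (Car1, Krt20 and Cdx2), and 1 had a positive value (median log2 fold change -0.178). In untreated KO 2 were lower than in untreated WT (Car1 and Muc2), and 0 had a positive value (median -0.299). Under DSS in KO Muc2 was past the threshold and higher. The part of epithelial cells in the levels of Tnf and Nfkbia was not tested. Immediate early and dissociation genes, which respond to cell isolation among other things, summed to 3350 to 4250 CPM in untreated WT, 5870 to 6080 CPM in DSS-treated WT, 3960 to 4180 CPM in untreated KO and 5580 to 5710 CPM in DSS-treated KO. Of 10 such genes tested, 7 rose under DSS in WT and 6 in KO. Their sums were higher under DSS in both genotypes without overlap, whereas Tnf and Nfkbia were past the threshold in WT alone. Between untreated genotypes the sums overlapped, while single genes did not: Junb and Dusp1 were past the threshold and higher in KO, as Tnf was, and Hspa1a was lower. Between genotypes under DSS the sums were lower in KO without overlap, as Tnf and Nfkbiz were. The part of isolation in the members' levels was not tested.

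**Figure D4:**
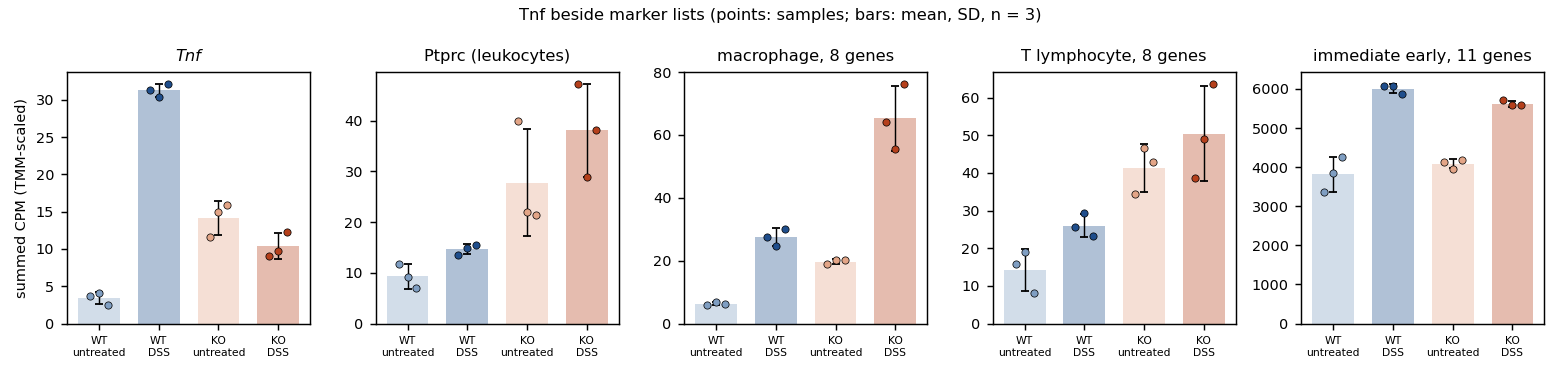
Tnf beside the summed level (CPM, linear axes from 0) of Ptprc, 8 macrophage markers without Cd14, 8 T lymphocyte markers and 11 immediate early and dissociation genes in the 4 groups; points are samples and bars the mean and SD of 3. Ptprc and the macrophage and T lymphocyte sums are highest in DSS-treated KO, at up to 47.2, 76.2 and 63.6 CPM, while Tnf is highest in DSS-treated WT.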

How the data were processed

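RNA sequencing of 12 samples of colonic epithelial cells gave the deposited values, which are raw read counts for each gene, made by the authors. STAR 2.5.2b, featureCounts 1.5.0 and the builds GRCm38 and mm10 are named in the submitters' processing notes. Libraries were made from 2 ng of RNA without molecular identifiers or strand, per the labels' protocols.

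Gene identifiers were matched without version to GENCODE M21, which gave symbols for 46005 of 46517. Counts were tested with edgeR 4.0.16 in R 4.3.3: filterByExpr kept 12522 genes with 99.8% of counts, TMM set the scaling, the model held a coefficient for each group of the 12 samples, and contrasts were tested two-sided by the quasi-likelihood F test (common biological coefficient of variation 0.227). Log2 CPM used a prior count of 2. DESeq2 1.42.0, RLE scaling, other filters, fits of 2 groups, a replicate block and fits without each sample were alternatives. The scripts were checked on simulated data. Replicates of a group differed by a chi-square of 6.51 to 27.0 per degree of freedom, so each counted as 1 sample.

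Titles number the samples in each group, and the deviations from group means of samples with the same number were correlated. For DSS in KO every value was over 0.1 (0.204, 0.106 and 0.127), so the fit blocked by number is given beside the main fit there. For DSS in WT they were 0.0138, 0.12 and 0.128. Between genotypes all were negative, from -0.175 to -0.0103. As values of like size had either sign, a pairing of the samples was not shown.

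The members and lists were chosen with earlier results of these data known. Named genes are the members, Nfkb2, pathway genes past the threshold (up to 4 per list and contrast), best-known genes of a list without one, and the 5 genes most correlated with Tnf and with Nfkbia.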

Additional observations from a re-analysis of the deposited data

Results flagged for a closer look

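The change under DSS differed between WT and KO for Tnf, Nfkbia and Nfkbiz, by the interaction term of the model over all genes. The interaction was -3.64 in log2 for Tnf, which was higher under DSS in WT (3.19) and not past the threshold in KO (-0.45). For Nfkbia the interaction was -1.33, with a DSS change of 1.32 in WT and -0.01 in KO. For Nfkbiz it was -0.82, with DSS changes of 1.26 in WT and 0.44 in KO. All 3 genes were among those whose interaction was known when the genes were chosen, so these values are a description.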

How the results depend on the processing

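All 16 member values past the threshold kept their sign in each alternative, and 11 of them passed in every one; the exceptions were Birc3 under DSS in WT, Bcl3 and Nfkbiz under DSS in KO, Tnip1 in untreated cells and Bcl3 between genotypes under DSS. None of 650 recomputed member values moved by more than the spread between replicates, while 2 of 80 group levels did with library totals alone, Nfkbia in untreated WT to 123.5 CPM and Nfkbiz in untreated KO to 125.8 CPM. With DESeq2, 800 of all genes passed for DSS in KO, 790 between untreated genotypes, 661 between genotypes under DSS and 360 for the interaction; 5 members passed between untreated genotypes, and 5, 8 and 1 other pathway genes passed in the last 3 contrasts. With no filter on low counts these counts of all genes were 776, 703, 642 and 356, and those of other pathway genes 3, 6 and 1. With at least 10 counts in every sample, 2 other pathway genes passed between untreated genotypes. With only the 2 groups compared, 467 of all genes passed for DSS in WT and 195 between untreated genotypes, and 4 other pathway genes passed between genotypes under DSS. With the replicate block, 1 member passed for DSS in KO and 1 other pathway gene between genotypes under DSS; it also ended the calls of Tnip1 in untreated cells and of Il1b under DSS in KO. The cause was not tested.

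With 1 library left out, the members past the threshold numbered 4 to 5 for DSS in WT, 0 to 1 for DSS in KO, 2 to 4 between untreated genotypes, 2 to 3 between genotypes under DSS and 3 to 4 for the interaction. Other pathway genes numbered 6 to 9, 2 to 6, 1 to 5, 0 to 1 and 0 to 1 in that order, and all genes 483 to 958, 235 to 302, 212 to 725, 160 to 231 and 152 to 350. The lowest of these counts of all genes came without DSS-treated WT replicate 1 (483 and 160), untreated KO replicate 2 (235) and untreated KO replicate 3 (212 and 152), and the highest of DSS in WT, of untreated genotypes and of the interaction without untreated WT replicate 3. Depth limits genes such as Nfkbie, Ltb and Il1b, with 13 to 57, 1 to 43 and 3 to 130 counts per sample. 3 samples a group set the precision of all values, and the p-values cover the spread between these samples.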
